A study of Mus musculus with 6 samples.

Results

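The control arm of the study consists of 3 of its 6 libraries and holds the polysomal mRNAs of hippocampal astrocytes in Cx43FL mice. These libraries were taken by their titles as littermate replicates 1 to 3. Cx43FL mice carry floxed alleles of Gja1, the gene of connexin 43 (fl/fl), and no Cre recombinase, so that Cx43 is not deleted. All animals were 6 weeks-old and carried Aldh1l1:L10a-eGFP, a bacterial artificial chromosome transgene kept heterozygous, which drives an eGFP fusion of ribosomal protein L10a from the promoter of Aldh1l1. Whole hippocampi were used for each polysome extraction, and the sources used here give neither the number nor the sex of the animals behind a library. The spread between libraries (SD, n = 3 libraries) may therefore be partly technical. No comparison between genotypes is made.

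Translating ribosome affinity purification (TRAP) pulls tagged ribosomes out of a tissue homogenate with an antibody against eGFP, and the mRNAs bound to them are sequenced. A transcript is recovered when it sits on ribosomes of a cell that expresses the transgene. Untagged mRNAs can be carried along in small amounts, and TRAP alone does not tell such a carried transcript from a low translated one. Astrocytes take up glutamate and potassium around synapses, turn glutamate into glutamine, line the vessels with their endfeet, supply neurons with lactate and cholesterol, and are coupled by gap junctions of Cx43 and Cx30.

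The libraries were of nearly equal depth. Their counts on genes, with 1 transcript for each gene, were 14787303, 15391214 and 15099265 in replicates 1 to 3. Of 22086 genes, 12224 (55.3%) had at least 10 counts in each of the 3 libraries and are here named detected, and 5977 genes had no count in any. Levels are given as TPM, that is counts divided by the length of the transcript and scaled to a sum of 1 M per library. CPM are counts per M without regard to length, and a count of 3 corresponds to between 0.195 and 0.203 CPM, which covers counting error only. The median level of detected genes was 20.4 TPM (4.36 on the scale of log2 of TPM plus 0.1). The top 10% of detected genes began at 153 TPM, and these genes were 5.54% of all genes. For the lists below, shares and medians cover all matched members, whereas the median they are set against covers detected genes only. A list with undetected members is thereby set lower.

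The 4 markers that define astrocytes were counted in each library and were ordered alike in all of them. Gfap (chr11:102887336-102900912, minus strand, GRCm38), the intermediate filament of astrocytes, had 947, 1066 and 1186 TPM from 16542, 21659 and 20194 counts in replicates 1 to 3. Slc1a3 (chr15:8634124-8710764), the glutamate transporter GLAST, had 465, 518 and 613 TPM. Aqp4, the water channel of the endfeet, had 193, 172 and 255 TPM. Aldh1l1 (chr6:90486427-90600203), a folate enzyme whose promoter drives the tag, was lowest with 52.7, 63.2 and 92.8 TPM. The ranges of the 4 genes did not overlap. By mean TPM, Gfap ranked 90, Slc1a3 276, Aqp4 888 and Aldh1l1 2584, so that the gene chosen to mark the cells lay below the top 10% of detected genes. Of the Aldh1l1 transcript, 438 bases are shared with another annotated gene.

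**Figure D1:**
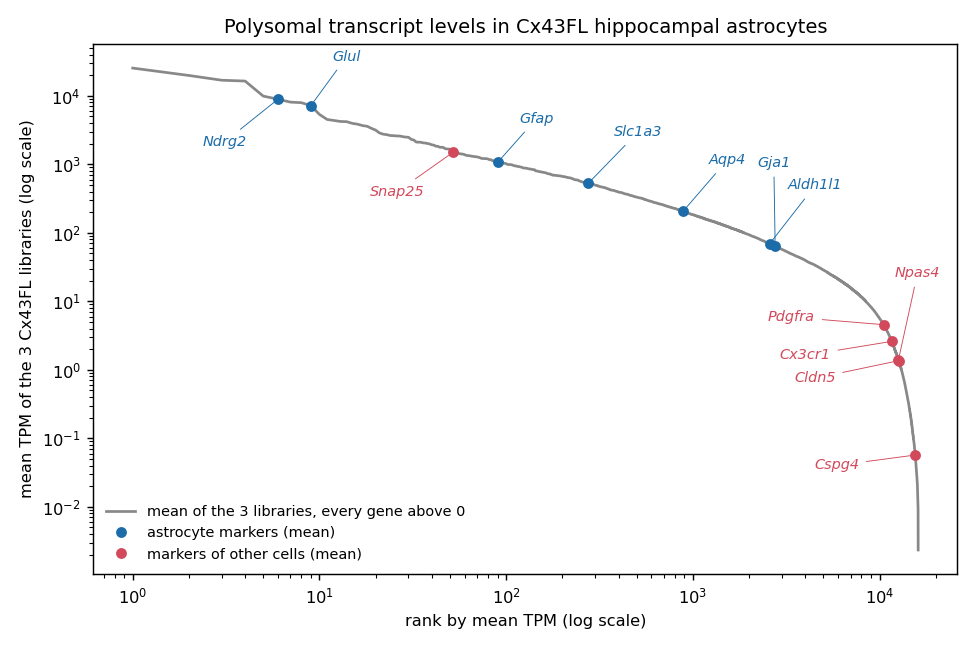
Mean TPM over the 3 Cx43FL libraries (vertical, log scale) against rank (horizontal, log scale) for every gene above 0, with astrocyte markers in blue and markers of other cells in red. Gfap at 1066 TPM and Slc1a3 at 532 TPM lie near the left of the curve, while Cx3cr1 at 2.60 TPM, Cldn5 at 1.36 TPM and Cspg4 at 0.0570 TPM lie on its falling end. Of the red points, Snap25 at 1502 TPM lies above Gfap.

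A small number of transcripts took a large share of the counts. In replicates 1 to 3, the 10 genes with the most counts held 6.82%, 7.82% and 7.43% of them (7.36% ± 0.504), and the 100 genes with the most counts held 19.9%, 21.1% and 20.8% (20.6% ± 0.656). The first 1000 genes held 52.3% ± 0.563. Ranked by mean TPM, 16 of the first 30 nuclear protein-coding genes had a transcript under 1000 bases, against 5 of the first 30 by CPM, and 18 genes stood in both.

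The first genes by level were short messages of lipid binding and metal binding. Dbi (chr1:120113280-120121078), the acyl-CoA binding protein and precursor of diazepam-binding peptides, had the highest mean level, with 21729, 35729 and 18807 TPM. Mt1 and Mt2, the metallothioneins that bind zinc and copper, followed with means of 19828 ± 14014 and 16896 ± 7524 TPM. Fabp7, the brain fatty acid-binding protein, had 9798, 11226 and 8715 TPM. These genes were all highest in replicate 2, and the ranges of Dbi and Mt1 overlapped. Ttr, the thyroxine carrier of the choroid plexus, ranked 4 by mean TPM, but 2 in replicate 1, 168 in replicate 2 and 1 in replicate 3, and is described with the genes of the choroid plexus.

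Mt1 and Mt2 lie next to each other on chromosome 8 and encode related proteins, and reads that match more than once had been removed. Their coding sequences are shown because these genes ranked 2 and 3 by level, and the capitals mark the bases in which they differ. Both are on the plus strand of GRCm38 and are read from 3 exons, for Mt1 chr8:94179311-94179338, chr8:94179823-94179888 and chr8:94180102-94180193, and for Mt2 chr8:94172848-94172875, chr8:94173127-94173192 and chr8:94173336-94173427.
Mt1: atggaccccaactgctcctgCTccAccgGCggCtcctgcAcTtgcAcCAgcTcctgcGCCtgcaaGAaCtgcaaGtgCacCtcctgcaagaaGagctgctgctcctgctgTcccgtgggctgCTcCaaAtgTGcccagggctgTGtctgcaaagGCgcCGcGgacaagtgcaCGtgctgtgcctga
Mt2: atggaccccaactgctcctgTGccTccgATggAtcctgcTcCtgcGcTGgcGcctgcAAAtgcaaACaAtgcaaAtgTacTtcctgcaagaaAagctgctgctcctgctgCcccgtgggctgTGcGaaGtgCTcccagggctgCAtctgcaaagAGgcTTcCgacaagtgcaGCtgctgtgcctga

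The coding sequences have 186 bases each and differ at 38 of them (79.6% identical). The longest run of bases that the whole transcripts share is 20, which is shorter than a read of 50 bases. The counts of the pair are thus separate measurements, although 355 bases of the Mt2 transcript overlap another annotated gene. Mt1 had 53506, 150312 and 31913 counts, and Mt2 had 48655, 99409 and 35847. Mt3, a related gene that is found in neural tissue, had 839, 1072 and 432 counts. These 3 metallothioneins were highest in replicate 2 and lowest in replicate 3.

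Among the next ranks stood enzymes of astrocytes that varied little between libraries and secreted proteins that varied more. Ndrg2 (chr14:51905271-51914158), a cytosolic protein that marks astrocytes, had 8748, 8565 and 9472 TPM. Glul (chr1:153899944-153909723), glutamine synthetase, had 7384, 6286 and 7886 TPM, and the highest mean CPM (9108 ± 320). Its counts were 136025, 134713 and 141515, but Ttr had more in replicates 1 and 3 and Cpe had more in replicate 2. Aldoc, the aldolase isoform of astrocytes, had 5500, 4704 and 5874 TPM. In scaled CPM, which corrects for library composition by TMM, the coefficient of variation (CV) of Glul was 1.81% and that of Aldoc 1.60%. Cst3, the secreted protease inhibitor cystatin C, had 8090 ± 1454 TPM and Cpe, a carboxypeptidase of the secretory pathway, 7947 ± 2231 TPM. Both were highest in replicate 2, and their CVs were 28.6% and 38.8%. The median CV was 27.1% over detected genes, and 15.4% among those from 1000 CPM, where both genes lie.

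Genes of the respiratory chain and ATP synthase encoded in the nucleus were also prominent, a group that was chosen after the ranks had been seen. Of 101 such genes, 97 were detected, 71 lay in the top 10%, and 9 were among the first 30 by TPM. Their median was 425 TPM. Atp5g3, a subunit of the membrane rotor of ATP synthase, had 4540, 5302 and 3713 TPM, and Ndufa4 had 4272, 4673 and 3717 TPM. By TPM, the highest of the 3 libraries was replicate 2 in 63 of the 101 genes (62.4%), against 27.2% of all detected genes and 41.2% of those of at most 1800 bases. In scaled CPM these shares were 74.3%, 39.6% and 55.8%. The median length of the 101 genes was 861 bases and that of the detected genes of at most 1800 bases 1256. The mitochondrial genome itself held only 0.0281%, 0.0426% and 0.0245% of the counts. Of its 13 protein genes, 7 were detected, led by mt-Nd1 with 134 TPM, and mt-Co2, mt-Atp6, mt-Atp8, mt-Co3 and mt-Nd4l are listed at 0. From 98.8% to 100% of the 50-base windows of these genes also occur in another annotated gene, except in mt-Atp8. Reads from such windows had been removed, so that a value of 0 does not show that the gene was absent.

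The same limit applies to other genes with near-identical copies. Of genes with no repeated 50-base window, 62.0% were detected, against 12.8% of genes in which more than 50% of the windows are repeated. The 84 genes of cytosolic ribosomal proteins, which have many processed copies, held 0.891% ± 0.222 of the counts, with a median of 43.0% repeated windows and 105 TPM, and 77 were detected. Gapdh, a glycolytic enzyme used as a reference, had only 17.2, 17.6 and 18.8 TPM, and 82.5% of its windows are repeated. These levels are lower limits.

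Genes with overlapping exons can share their counts. Gm20721 (chr2:174330319-174346712, minus strand) ranked among the first 30 with 24998, 23698 and 29981 counts. Of its 1484 bases, 1469 are shared with Gnas (chr2:174284320-174346744), the stimulatory G protein subunit on the other strand, which had 25000, 23713 and 29989 counts. The counts of this pair cannot be told apart. In all, 5553 genes share exonic bases with another gene, and held 30.3% ± 0.119 of the counts.

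Compared with lists of genes of 9 other cell types or lineages, the astrocyte list had the highest median. The lists were chosen with earlier results of these data known, so that their order can reflect the choice. The list of 30 astrocyte genes was detected in full, and its median was 374 TPM, 4.19 above that of all detected genes on the log2 scale. Of its members, 25 (83.3%) lay in the top 10%, against 5.54% of all genes. Taken library by library, 25, 24 and 24 members lay in the top 10%. The highest and the lowest of the 3 libraries differed 1.33-fold for the median member and 2.42-fold for the most variable, the bicarbonate transporter Slc4a4. The summed level of the list was 33103, 32133 and 36361 TPM.

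At its top, after Ndrg2, Glul and Aldoc, stood S100b, a calcium-binding protein (2316 ± 445 TPM), and Slc1a2, the glutamate transporter GLT-1 (1519, 963 and 1960 TPM). At its foot stood Slc7a10, a transporter of serine and glycine (38.8 ± 7.47 TPM), and Gja1, the connexin gene floxed in these mice (68.9, 58.6 and 64.0 TPM). Gja1 (chr10:56377330-56402513) had 1396, 1382 and 1264 counts, and its transcript has neither overlapping exons nor repeated windows.

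The 8 lists of other cells, without the neurogenic lineage, together had 115 matched genes. Of these, 75 (65.2%) were detected, against 55.3% of all genes, and 6 (5.22%) lay in the top 10%, against 5.54% of all genes. Their median, over detected and undetected members, was 4.71 TPM. This is 2.09 below the median of detected genes alone on the log2 scale (difference -2.09). When the reference was every gene with at least 1 count in any library, the difference was -1.25. Of the 115, 92 had a lower mean TPM than the lowest astrocyte gene, and 2 lay above the astrocyte median. In TRAP extracts such as these, the number of tagged cells, the RNA per cell and untagged mRNAs carried along cannot be told apart. The levels therefore do not measure how many cells of a type were present.

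**Figure D2:**
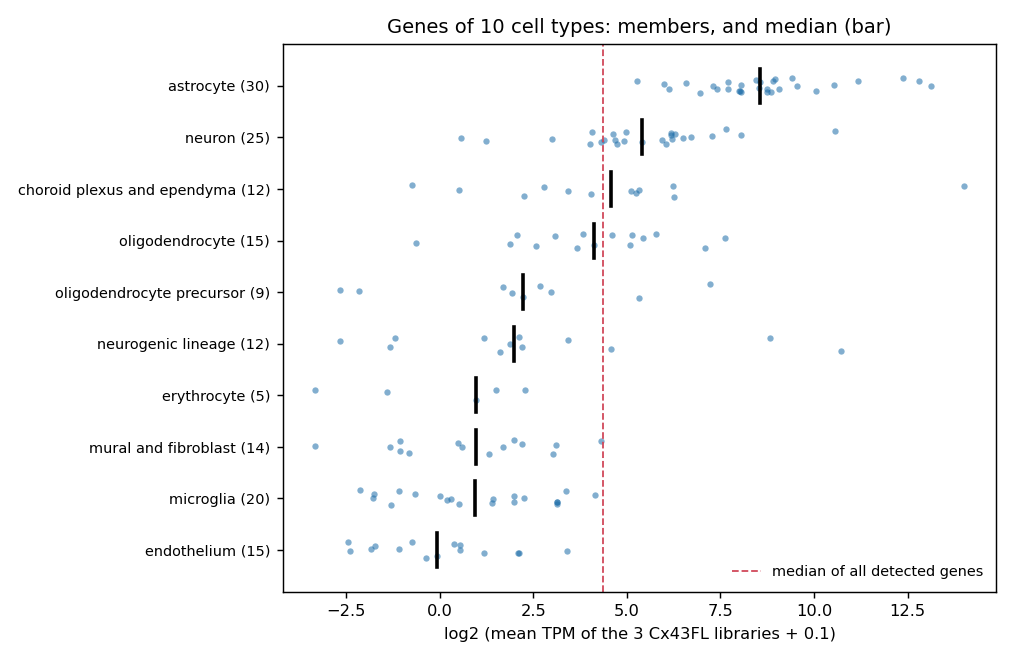
Mean TPM plus 0.1 over the 3 Cx43FL libraries (horizontal, log2 scale) for each matched member of 10 lists of cell type genes, with the list's median as a black bar, the number of members in parentheses and the median of all detected genes (4.36) as a dashed line. The astrocyte median is 4.19 above that line and the endothelial median 4.43 below it (-4.43), with the neuronal list between them at +1.04.

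Neuronal genes were the highest of the other lists and were all detected. The 25 members had a median of 42.0 TPM, 1.04 above all detected genes on the log2 scale, and 4 lay in the top 10%. Snap25, a protein of synaptic vesicle fusion, had 1278, 1338 and 1891 TPM and ranked 52, above Gfap in every library. The next were the calcium sensor Vsnl1 (265 ± 53.3 TPM), the kinase subunit Camk2a (202 ± 52.2 TPM) and the calcium sensor Hpca (154 ± 19.6 TPM). In contrast, Npas4, an activity-induced transcription factor of neurons, had only 50, 12 and 38 counts, and Slc32a1, the vesicular transporter of inhibitory neurons, 15, 45 and 70. The summed level of the list, 2555, 2966 and 3498 TPM, was far below the astrocyte sum in each library. Whether neuronal transcripts come from tagged cells or were carried along was not tested.

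Of 15 oligodendrocyte genes, 14 were detected, with a median of 17.2 TPM (-0.24 against all detected genes). Cnp, an enzyme of non-compact myelin, had 210, 172 and 213 TPM. Mog, a protein of the outer myelin surface, had 66, 412 and 54 counts, and 9 members (60.0%) were highest in replicate 2 by TPM, against 27.2% of all detected genes. In scaled CPM the number was also 9, against 39.6%. Among 9 matched precursor genes, 7 were detected with a median of 4.56 TPM (-2.14). Olig1 had 160, 146 and 146 TPM and Pdgfra 4.61, 3.98 and 5.11 TPM, while the proteoglycan gene Cspg4 had 4, 6 and 0 counts.

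Microglial, vascular and blood genes were low. Of 20 microglial genes, 10 were detected, none in the top 10%, with a median of 1.94 TPM (-3.40). Ctss, a lysosomal protease, had 18.1, 8.36 and 4.13 TPM. Cx3cr1, the fractalkine receptor, had 44, 58 and 97 counts. Aif1, the gene of Iba1, had 1, 166 and 1 counts and Tyrobp 63, 30 and 7, so that single members did not follow each other between libraries. The summed level of the list was 90.7, 94.7 and 46.6 TPM.

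Of 15 endothelial genes, 4 were detected (26.7%, against 55.3% of all genes), with a median of 0.854 TPM (-4.43). Cldn5, the claudin of the blood-brain barrier, had 19, 2 and 17 counts, Pecam1 4, 13 and 6, and Cdh5 1, 3 and 3. Of 14 mural and fibroblast genes, 7 were detected (median 1.91 TPM, -3.39), the highest being Dcn, a matrix proteoglycan, at 19.6 ± 6.85 TPM. Kcnj8 of pericytes had no count. Of 5 erythrocyte genes, 1 was detected (median 1.86 TPM, -3.39), but a median of 65.8% of their windows is repeated, so that globin levels are lower limits.

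Genes of the neurogenic lineage, found in the dentate gyrus, were mostly low, and the highest were genes that astrocytes also express. Of 12 genes 9 were detected, with a median of 3.89 TPM (-2.37). Hopx, which marks radial stem cells and also mature astrocytes, had 1714, 1742 and 1641 TPM, and Sox2, a progenitor factor, 522, 364 and 471 TPM. The proliferation gene Mki67 had 258, 174 and 293 counts, Top2a, another gene of dividing cells, 85, 372 and 56, Dcx of young neurons 348, 110 and 90, and Eomes of intermediate progenitors 2, 0 and 2.

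Genes of the choroid plexus separated replicate 2 from the others. The choroid plexus is the epithelium that secretes cerebrospinal fluid and lies against the hippocampus in the ventricle. Ttr had 145644 counts in replicate 1, 6785 in replicate 2 and 228346 in replicate 3, and its CV was 87.7%. Clic6, a chloride channel of this epithelium, had 2299, 49 and 3297 counts, Kl, which encodes Klotho, 1428, 34 and 2007, and Otx2, the homeobox factor of the plexus, 732, 59 and 890. The potassium channel Kcnj13 had 525, 2 and 405 counts, the folate receptor Folr1 123, 0 and 299, and the water channel Aqp1 106, 1 and 130. Replicate 2 was below both other libraries for each of these genes. Enpp2, the lysophospholipase autotaxin, had 14678, 2184 and 19398 counts, and was the only gene that ranked by counts among the first 100 of 1 library and outside the first 500 of another.

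The list of 12 choroid plexus and ependymal genes had a median of 25.6 TPM (0.23 above all detected genes), 7 were detected, and its summed level was 18996, 813 and 30416 TPM, a 37.4-fold range. Of its 12 members, 11 were lowest in replicate 2 (91.7%), against 52.4% of all detected genes by TPM and 39.7% in scaled CPM. The ciliary gene Ccdc153 went the other way, with 18, 184 and 53 counts. Astrocyte markers did not follow this pattern, since Gfap, Slc1a3 and Aldh1l1 had more counts in replicate 2 than in replicate 1, and no member of the astrocyte list was 4-fold lower in replicate 2. Ttr alone held 0.985% of the counts of replicate 1 and 1.51% of replicate 3. Whether choroid plexus cells in the dissected tissue, tagged or not, gave these counts was not tested.

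**Figure D3:**
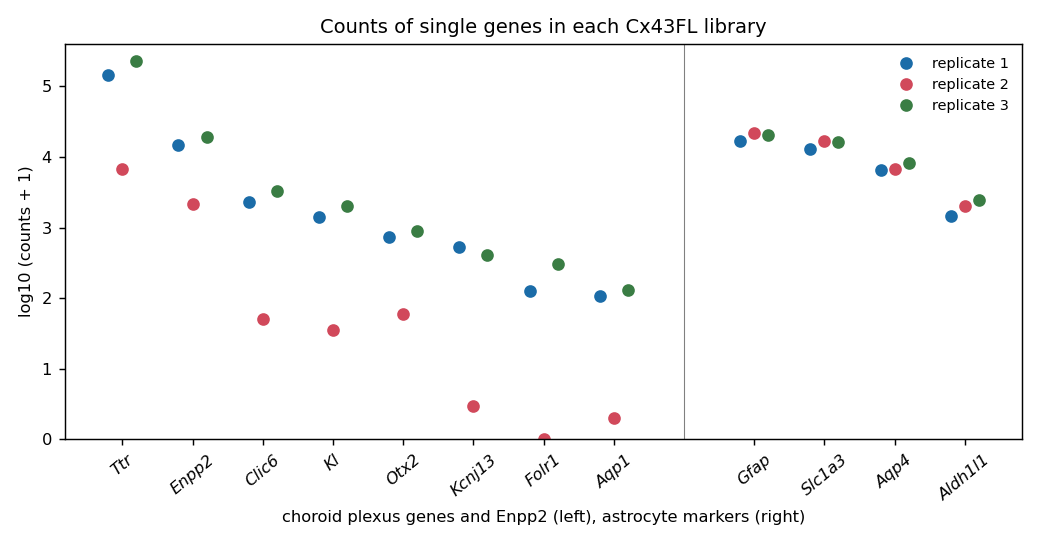
Counts plus 1 (vertical, log10 scale) of 7 choroid plexus genes and Enpp2 (left) and of 4 astrocyte markers (right) in each Cx43FL library, 1 point per library. Replicate 2 lies below replicates 1 and 3 for every gene on the left, with 6785 counts of Ttr against 145644 and 228346, whereas the points of Gfap, from 16542 to 21659 counts, lie close together.

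Genes of transmitter clearance were among the highest groups of function. Of 18 genes of transmitter uptake and the glutamine cycle, 16 were detected and 8 lay in the top 10%, with a median of 121 TPM (2.55 above all detected genes). Besides Glul, Slc1a2 and Slc1a3, they included Glud1, glutamate dehydrogenase (928 ± 91.5 TPM), and Slc25a18, a mitochondrial glutamate carrier (497 ± 15.1 TPM). The GABA transporter Slc6a11 had 136 ± 18.5 TPM, and Maob, which breaks down monoamines, had 175 ± 56.1 TPM. In contrast, the neutral amino acid transporter Slc1a5 had 0, 3 and 2 counts and Slc38a5 had none.

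Ion and water transport showed a similar level. Of 18 genes, 16 were detected and 9 lay in the top 10%, with a median of 141 TPM (2.77 above). Car2, a carbonic anhydrase, had 1559, 2227 and 1719 TPM, and Ttyh1, a chloride channel family member, 914 ± 125 TPM. The sodium pump subunit Atp1b2 had 682 ± 96.7 TPM. Kcnj10, which encodes Kir4.1, had 158 ± 19.5 TPM and its partner Kcnj16 72.8 ± 12.8 TPM. Trpv4 had 24, 1 and 63 counts.

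Among 8 gap junction and pannexin genes, 5 were detected and the median was 3.47 TPM (-2.52). Gjb6, which encodes Cx30, had 498, 509 and 476 TPM, above Gja1 (Cx43) at 68.9, 58.6 and 64.0 TPM in every library, and Gjb2 (Cx26) had 26.7 ± 6.08 TPM. Of 12 genes that anchor the endfeet, all were detected and 4 lay in the top 10% (median 33.7 TPM, 0.58 above). Hepacam (430 ± 70.7 TPM), Mlc1 (255 ± 47.0 TPM) and Dtna (282 ± 32.3 TPM) led, while Lamb2 and Agrn, of the basal lamina, had 2.17 ± 0.725 and 3.29 ± 1.40 TPM.

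Of 25 genes of glycolysis, lactate and glycogen, 24 were detected and 9 lay in the top 10% (median 41.7 TPM, 1.03 above). After Aldoc came the lactate dehydrogenase subunits Ldhb (2009 ± 359 TPM) and Ldha (389 ± 49.2 TPM), Aldoa (1207 ± 274 TPM) and the brain glycogen phosphorylase Pygb (296 ± 61.5 TPM). Hk1 exceeded Hk2, with 25.5 ± 9.56 against 1.5 ± 1.2 TPM. Slc16a1, a monocarboxylate transporter that exports lactate, had 13 ± 2.66 TPM, and Slc16a3 had 20, 0 and 3 counts.

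All 25 genes of cholesterol and lipid handling were detected, and 9 lay in the top 10% (median 56.3 TPM, 1.46 above). Apoe, the lipid carrier secreted by astrocytes, had 1916, 2050 and 2366 TPM, and Clu, clusterin, 1781 ± 313 TPM. The synthetic enzymes ranged from Hmgcs1 with 312 ± 43.5 TPM to Idi1 with 11.8 ± 3.32 TPM. The exporters Abca1 and Abcg1 had 3.07 ± 0.638 and 2.95 ± 1.90 TPM. Of 23 secreted synapse and matrix factors, 20 were detected and 4 lay in the top 10% (median 20.4 TPM, equal to that of all detected genes at 2 decimals). Besides Cst3, these were Sparcl1 (1019 ± 60.8 TPM) and Sparc (662 ± 57.3 TPM), which act on synapse number, and the growth factor Ptn (283 ± 60.1 TPM). The thrombospondin Thbs1 had 10, 1 and 10 counts, and Wif1 none.

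Of 12 engulfment genes, 11 were detected and only Mfge8, a bridging molecule, lay in the top 10% with 267 ± 36.8 TPM (median 15.1 TPM, -0.43). The receptors Axl, Mertk and Megf10 had 62.7 ± 22, 36 ± 17.5 and 13.8 ± 1.84 TPM. Of 25 metabotropic and peptide receptors, 17 were detected and 3 lay in the top 10%, Ntsr2 (neurotensin, 750 ± 225 TPM), Gpr37l1 (481 ± 81.1 TPM) and Gabbr1 (222 ± 18.2 TPM), while the median was 7.21 TPM (-1.49). Grm3 had 96.4 ± 23.1 TPM and Grm5, a glutamate receptor of young astrocytes, 12.9 ± 7.33 TPM. P2ry14 and Htr2b had no count.

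Transcription factors of astrocytes were high as a group. Of 24 factors, 23 were detected and 13 lay in the top 10%, with a median of 172 TPM (3.07 above). Id2 and Id3, inhibitors of helix-loop-helix factors, had 2057 ± 283 and 784 ± 9.58 TPM, Hey1, a Notch target, had 574 ± 189 TPM, and Sox9, a glial determinant, had 419, 215 and 496 TPM. By TPM, the lowest of the 3 libraries was replicate 2 in 19 of the 24 (79.2%), against 52.4% of all detected genes and 62.8% of those of at least 5439 bases. In scaled CPM the number was 15 (62.5%), against 39.7% and 49.5%. Atf3, a stress factor, had 6, 0 and 12 counts. Of 5 factors of telencephalic identity, 4 were detected, and Lhx2 had 835, 797 and 695 TPM and Emx2 136 ± 20.8 TPM (median 96.5 TPM, 2.24 above). Of 13 regional factors of other brain parts, only Otx2 and Six3 were detected (median 0.0334 TPM, -7.26), the former with the choroid pattern given above, and En1, Pax7, Hoxa5 and Hoxb5 had no count.

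**Figure D4:**
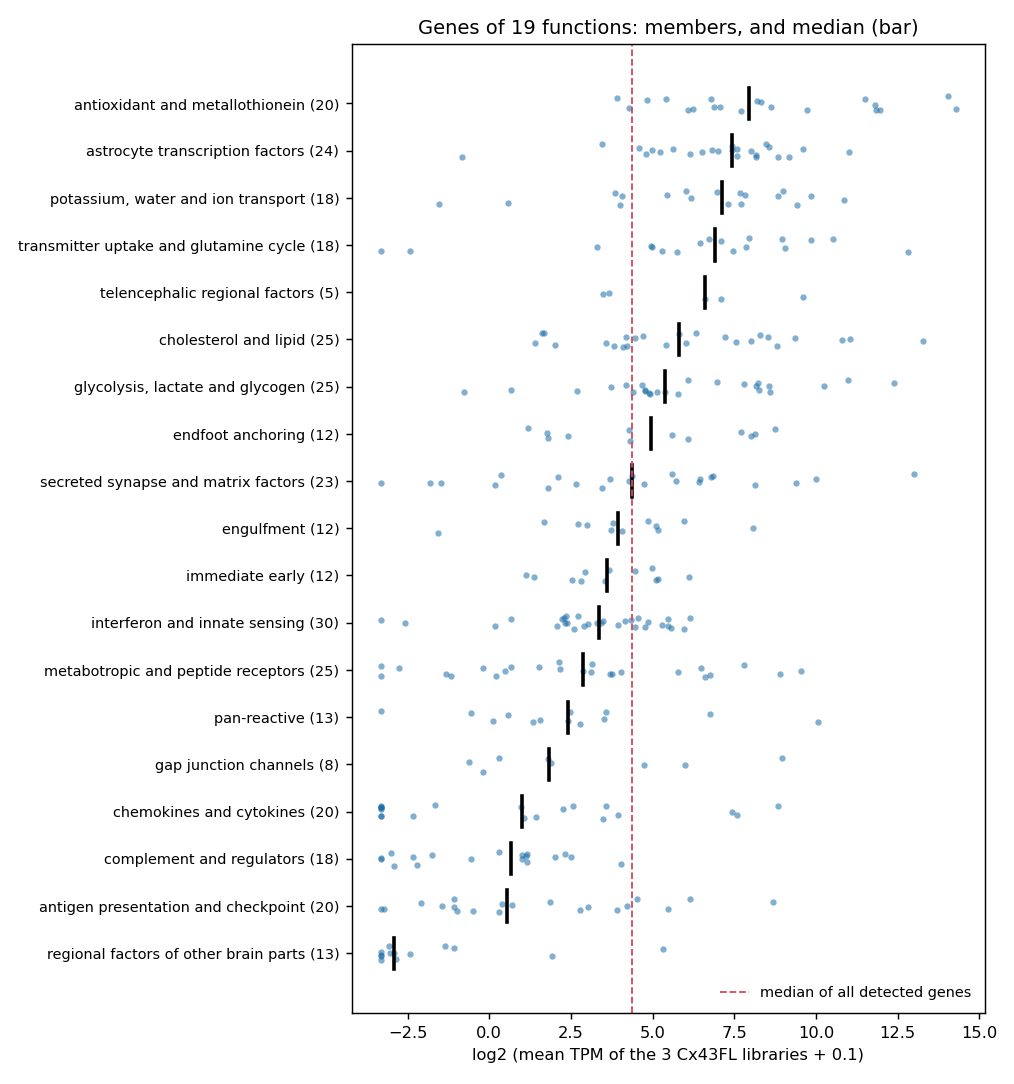
Mean TPM plus 0.1 over the 3 Cx43FL libraries (horizontal, log2 scale) for each matched member of 19 lists of genes by function, with the list's median as a black bar, the number of members in parentheses and the median of all detected genes (4.36) as a dashed line. Antioxidant genes and transcription factors of astrocytes lie highest, 3.59 and 3.07 above the line, and regional factors of other brain parts lowest (-7.26).

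All 20 antioxidant and metallothionein genes were detected and 11 lay in the top 10% (median 250 TPM, 3.59 above). Apart from Mt1 and Mt2, the glutathione transferases Gstm1 and Gstm5 had 3961 ± 551 and 3683 ± 237 TPM, the peroxiredoxin Prdx6 3595 ± 446 TPM and Sod1, superoxide dismutase, 2866 ± 200 TPM. The summed level was 45529, 77603 and 37323 TPM, a 2.08-fold range. Without Mt1 and Mt2, the other 18 genes summed to 16326, 16593 and 17364 TPM, a 1.06-fold range. By TPM, 7 of all 20 members were highest and 10 lowest in replicate 2, against 27.2% and 52.4% of all detected genes. In scaled CPM the numbers were 10 highest and 5 lowest, against 39.6% and 39.7%. Nfe2l2, the regulator NRF2, had 133 ± 14.1 TPM.

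The lists of reactive astrocyte and inflammatory genes had medians below that of detected genes in these control mice. Of 13 pan-reactive genes, 10 were detected (76.9%, against 55.3% of all genes), with a median of 5.16 TPM (-1.96). Only Gfap lay in the top 10% (7.69%, against 5.54% of all genes). Vim, vimentin, had 108 ± 3.03 TPM, Serpina3n, a secreted protease inhibitor, 6.39, 18.7 and 8.89 TPM, and Lcn2, lipocalin 2, had no count in any library. Of 20 chemokines and cytokines, 10 were detected (median 1.93 TPM, -3.34) and 7 had no count, among them Ccl2, Il1b, Il6 and Tnf. Il18 (358, 667 and 345 TPM), Il33 (192 ± 23.0 TPM) and Cxcl14 (171 ± 38.2 TPM) lay in the top 10%. Cxcl10, a T-cell attractant, had 99, 150 and 29 counts, and Ccl5 0, 0 and 1.

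Of 18 complement genes, 8 were detected (44.4%, against 55.3% of all genes), with a median of 1.52 TPM (-3.70). The highest was Cd59a, an inhibitor of the membrane attack complex, with 24.5, 4.47 and 19.6 TPM, and C3, the central component, had 0, 8 and 5 counts. Of 20 genes of antigen presentation and immune checkpoints, 12 were detected (60.0%, median 1.36 TPM, -3.82). B2m, the light chain of class I molecules, had 408 ± 46.1 TPM and Cd47, a signal against engulfment, 71.2 ± 10.9 TPM, while Cd274, the ligand PD-L1, had 73, 11 and 25 counts. Cd74, the class II invariant chain, had 130, 491 and 79 counts.

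Receptors and mediators of innate signalling were present at moderate levels. Of 30 genes of interferon and innate sensing, 26 were detected, none in the top 10% (median 10.1 TPM, -1.02). Jak1 had 70.0 ± 10.3 TPM, Tlr3, a sensor of double-stranded RNA, 61.7 ± 5.62 TPM and Stat3 38.5 ± 6.77 TPM. The induced genes Ifit1 and Irf7 had 1.47 ± 1.01 and 1.04 ± 1.01 TPM, and Oas1a had no count. Of 12 immediate early genes, 11 were detected (median 12.1 TPM, -0.75), led by Dusp1 with 69.7 ± 4.17 TPM. Fos had 232, 560 and 190 counts. Of 10 symbols listed as long non-coding RNAs, only Snhg11 could be matched, with 37.8 ± 16.3 TPM, through a transcript that GENCODE annotates as protein-coding. Only 762 of the 22086 genes are not annotated as protein-coding, and these held 0.135% ± 0.0114 of the counts. This share covers only transcripts that were counted and matched, and does not measure non-coding RNA on the ribosomes as a whole.

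The libraries did not resemble each other equally. Across the 12224 detected genes, the Pearson correlation of log2 of scaled CPM plus 0.5 was 0.955 between replicates 1 and 3, 0.911 between 1 and 2 and 0.905 between 2 and 3. These are correlations across genes, which are not independent replicates. More than 2-fold differences were found for 9.35% of genes between replicates 1 and 3, 20.1% between 1 and 2 and 22.9% between 2 and 3. Of the first 100 genes by TPM, 85, 80 and 74 were shared in these pairs, and 71 by all 3 libraries. The biological coefficient of variation estimated by edgeR was 0.385 with all 3 libraries and 0.284 without replicate 2, against 0.428 without replicate 1 and 0.414 without replicate 3.

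The spread depended on the level. The median CV was 27.1% over detected genes, and fell from 48.6% under 5 CPM to 15.4% from 1000 CPM, where counting alone would give 0.663%. Among nuclear protein-coding genes with a mean of at least 500 counts, the lowest CVs were those of Trnt1 (0.253%), Atp5c1 (0.324%), Med19 (0.391%), Lypla1 (0.489%) and Gpm6b (0.622%), a membrane glycoprotein with 29175, 29658 and 30035 counts.

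Of the 15 highest CVs in this class, 11 belonged to genes highest in replicate 2 and 4 to genes lowest in it. In scaled CPM, 39.6% of all detected genes were highest and 39.7% lowest in replicate 2. A CV on the linear scale grows more with 1 high library than with 1 low library, so that this split gives no direction. Lowest in replicate 2 were Clic6 (88.0%), Ttr (87.7%), Kl (87.3%) and the endocytic adaptor Dab2 (80.1%). The highest was Mbd1, a reader of methylated DNA, with 169, 1335 and 258 counts (111%), followed by Hddc2 (91.5%) with 451, 2024 and 482. The others were Smg6 (85.2%), Wdr73 (84.6%), Rabepk (83.3%), Smim11 (80.6%), Elp6 (80.6%), Zfhx4 (80.5%), Amacr (80.4%), Mt1 (80.4%) and Snx15 (79.5%). These genes belong to different functions. Of 10374 genes with a mean of at least 100 counts, replicate 2 was at least 4-fold above both others for 41 and at least 4-fold below both for 124, against 5 and 11 for replicate 1 and 3 and 7 for replicate 3.

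The libraries also differed with transcript length, and replicate 2 was not alone in this. Among 7498 genes with a mean of at least 20 CPM, divided into 5 classes of about equal size by length, in the shortest class (225 to 1800 bases), the median of replicate 2 was 0.32 above the mean of the others on the log2 scale of scaled CPM, and in the longest (from 5439 bases) it was lower, at -0.18. Across genes the Spearman correlation of this difference with length was -0.28, and that of the difference between replicates 1 and 3 was -0.18. The median of replicate 1 minus replicate 3 was 0.17 in the shortest class and -0.03 in the longest. The short messages of metallothioneins, Dbi and the respiratory chain were thus high in the library in which short transcripts were high as a class, and the part of length in their levels was not tested.

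**Figure D5:**
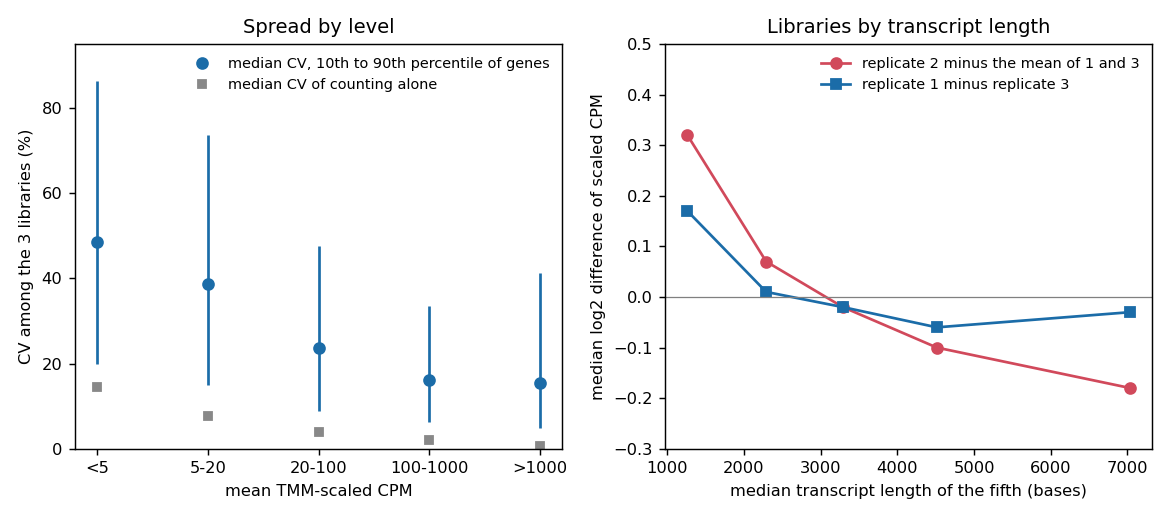
Left, CV of scaled CPM among the 3 Cx43FL libraries (vertical, percent) by mean level (horizontal), as the median and the range from the 10th to the 90th percentile of genes, beside the median CV of counting alone; the median falls from 48.6% to 15.4%. Right, median log2 difference between libraries (vertical) for 5 groups of genes by length (horizontal, median bases). Replicate 2 minus the mean of the others is 0.32 in the shortest and -0.18 in the longest. Replicate 1 minus replicate 3 is 0.17 and -0.03 there.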

How the data were processed

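Polysomal RNA of hippocampal astrocytes was measured in 3 Cx43FL libraries. RNA was amplified with NuGEN's Ovation kit and sequenced in reads of 50 bases. The authors filtered the reads with Eoulsan, aligned to mm10 with STAR, discarded alignments of reads matching more than once, used HTSeq-count 0.5.3 and deposited the raw counts per Ensembl transcript, not normalized. Totals over transcripts were 33423491 to 34921942.

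Of 75466 transcripts, 73157 were matched to GENCODE M21 (GRCm38) and 2309, with 1.68% to 1.70% of the counts, were not. In 10979 pairs, 1 transcript lay inside another of the same gene that had at least 100 counts in each Cx43FL library. The inner transcript had counts in 99.8% of the pairs and no more than the outer in 99.1%, so that a read was counted on each transcript it overlaps. Each gene therefore stands for the 1 transcript that had most counts over the 6 libraries, and the length of this transcript divides the counts for TPM. TMM factors (0.977 to 1.013) and the dispersion came from edgeR 4.0.16 in R 4.3.3, and the step that estimates the dispersion was checked on simulated counts. A pseudocount of 0.1 TPM was added before log2. Windows of 50 bases found in another gene were counted as repeated. Python 3.11.15, pandas 2.3.3, numpy 2.4.6 and matplotlib 3.10.9 were used. Coding sequences were read from GENCODE M21.

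No groups were compared and no p-value is given, since 1 genotype is described. The genes named are the members of 30 lists (468 of 478 symbols matched), the 30 nuclear protein-coding genes with the highest mean TPM and the 30 with the highest mean CPM, the 15 highest and 5 lowest CVs with a mean of at least 500 counts, and genes among the first 100 of a library and outside the first 500 of another. The lists were chosen with earlier results of these data known. Amplified reads are not independent molecules. Alternatives were other transcript choices, filters, scalings, pseudocounts, levels without length and leaving out each library. The Cx43KO libraries were used only in the choice of transcripts. Results for some genes of the lists are not reported here.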

Additional observations from a re-analysis of the deposited data

How the results depend on the processing

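No paired analysis was possible because the libraries described are of 1 genotype. The number of detected genes stayed between 10396 and 16109 under all filters and transcript choices. Summing the transcripts of a gene gave 23.1% of counts on the 100 highest genes, 0.0142% on the mitochondrial genome and an astrocyte median 3.78 above all detected genes, and leaving out genes with overlapping exons gave 25.1% on the 100 highest genes. Asking for 1 count in any library gave 5.03 for the astrocyte median, -1.25 for the 8 lists of other cells and 35.4% for the median CV, since more low genes then enter. Asking for 50 counts in each library gave 3.80 and -2.48. The astrocyte median was 4.03 without division by length and 4.13 with a pseudocount of 1 TPM. Added after seeing the data, the median of the other cells was -1.58 when only windows found nowhere else were counted as length, and the median CV was 21.0% from 20 CPM. Leaving out each library in turn gave 12426 to 12875 detected genes, 20.3% to 21.0% on the 100 highest genes, 0.0263% to 0.0354% on the mitochondrial genome, 4.21 to 4.32 for astrocyte genes, -1.98 to -1.81 for other cells and a median CV of 17.0% (without replicate 2) to 26.5%. The medians of oligodendrocyte genes (-0.71 to 0.60) and of choroid plexus genes (-1.09 to 1.07) lay on either side of all detected genes. Ranks depended on length, Aqp4 ranking 888 by TPM and 260 by CPM, and 1901 with summed transcripts. The cause was not tested where none is given. Depth limits genes under 10 counts.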

Other observations

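Further genes followed the choroid plexus pattern and were picked from the 124 genes at least 4-fold lower in replicate 2 after their values had been seen. Kcne2, a potassium channel subunit of the choroid plexus, had 514, 22 and 604 counts in replicates 1 to 3, and Sostdc1, a secreted inhibitor of BMP signalling, had 495, 5 and 876. The bicarbonate transporter Slc4a5 had 158, 4 and 467 counts, the keratin Krt18 had 184, 7 and 194, and the ciliary gene Pifo had 227, 2 and 276. The 124 were found among 10374 genes with a mean of at least 100 counts. Of the 468 matched genes on any list, 8 were among the 124, and how many of the 468 reach this mean was not counted. Of the 8, 7 were choroid plexus or ependymal genes, from a list of 12. The other was Pros1, a ligand of the engulfment receptors, with 224, 31 and 251 counts.

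Transcripts of the Y chromosome, also chosen after their values had been seen, were counted in all 3 libraries. Ddx3y had 1324, 727 and 1324 counts, Eif2s3y 511, 519 and 426, Uty 444, 407 and 553 and Kdm5d 291, 495 and 300.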
